A study of Mus musculus with 24 samples.

Results

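The imprinted growth genes outside the Dlk1-Dio3 domain followed here in mouse gastrocnemius were *Igf2*, *H19*, *Plagl1*, *Peg3*, *Mest*, *Cdkn1c*, *Grb10*, *Ndn*, *Gnas* and *Zdbf2*. They were found in the gene count table by matching its Ensembl identifiers to these symbols, and each of the 10 matched 1 row of 55401. The mice were male C57BL6, 4 weeks old (young) or 10 weeks old (adult) on arrival, and received either a scald covering 25% of the skin surface or a sham treatment. The study's methods place the procedure after a week of acclimation, so the mice were that much older at injury. The 4 groups, young and adult mice with burn or sham, had 3 mice each, and muscle was taken 24 h after injury. Per the study's methods, sham mice also had anaesthesia and analgesia but no fluid resuscitation, which burned mice received, so burn and resuscitation cannot be told apart. Also per the methods, gastrocnemius lies away from the scalded skin, so no scalded muscle was measured.

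Imprinted genes are transcribed from 1 parental copy, and many of them set the pace of growth before and shortly after birth. In general, paternally expressed members such as *Igf2*, *Peg3*, *Mest*, *Plagl1* and *Zdbf2* favour growth, whereas maternally expressed members such as *H19*, *Cdkn1c* and *Grb10* restrain it. *Ndn*, also paternally expressed, restrains proliferation. Many of these transcripts are abundant in the fetus and decline as postnatal growth slows. Parental alleles were not measured here, so every value below is the sum over both copies.

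The mRNA libraries held 4392605 to 5688512 counts, and the miRNA libraries 1704531 to 3149396. Young burn replicate 2 stood apart among the mRNA libraries: its log2 CPM (TMM-normalised read count, scaled to a library of 1e6 counts) had a median correlation of 0.941 with its own group, against 0.960 to 0.982 for the other 11. Fold changes below come from the 11 libraries without it, so young burn has 2 libraries in them. The value of every one of the 12 libraries is given for each member, and each member or listed gene named below whose call is lost when it is added is named. The 8 muscle fibre markers were abundant, summing to 71728 to 139530 CPM per library. Gene counts are per bulk sample, so fewer cells of a type and less RNA per cell cannot be told apart. Per the study's RNA quality report, no RNA sample was given an integrity number. In that report the ratio of large to small ribosomal RNA was mostly higher in adult sham than in young sham. The part of RNA integrity in the age differences was not tested.

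Of the members, 3 carry a miRNA inside the gene, and these were counted in separate libraries. Whether a miRNA entry follows the output of its host gene was not tested. The miR-675 hairpin lies in an exon of *H19* (chr7:142577064-142577147, minus strand), the miR-483 hairpin in an intron of *Igf2* (chr7:142654924-142654996, minus strand) and the miR-335 hairpin in an intron of *Mest* (chr6:30741299-30741396, plus strand). Their mature sequences, from RefSeq on GRCm38.p6, are shown because these are the products behind the entries counted (each entry bears the hairpin's name, so its 2 arms cannot be told apart). Capitals mark the seed, bases 2 to 8, which pairs with targets. No other mature mouse miRNA in that table has any of these 6 seeds.
mmu-miR-675-5p: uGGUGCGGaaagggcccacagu
mmu-miR-675-3p: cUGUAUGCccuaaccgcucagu
mmu-miR-483-5p: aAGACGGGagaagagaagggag
mmu-miR-483-3p: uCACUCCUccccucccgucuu
mmu-miR-335-5p: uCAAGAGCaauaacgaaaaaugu
mmu-miR-335-3p: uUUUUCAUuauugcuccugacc

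Young muscle held more of most members than adult muscle, with and without a burn. Between the sham groups, 7 of the 9 members that passed the filter on low counts were called higher in young (edgeR quasi-likelihood test, Benjamini-Hochberg adjusted p under 0.05 over 12651 genes) and none lower. Over all genes tested, 11.8% were called in this comparison and 5.27% were called higher in young. Between the burn groups 8 of 9 were called higher in young and none lower, against 20.7% of all genes called and 11.2% called higher. The median log2 fold change of the 9 members was 1.79 between sham groups and 1.77 between burn groups, while the median of all tested genes was 0.00093 and 0.0076. *Igf2* did not pass the filter. The members were chosen with earlier results of these data known, so these shares and medians describe them and are no test of the set.

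**Figure D1:**
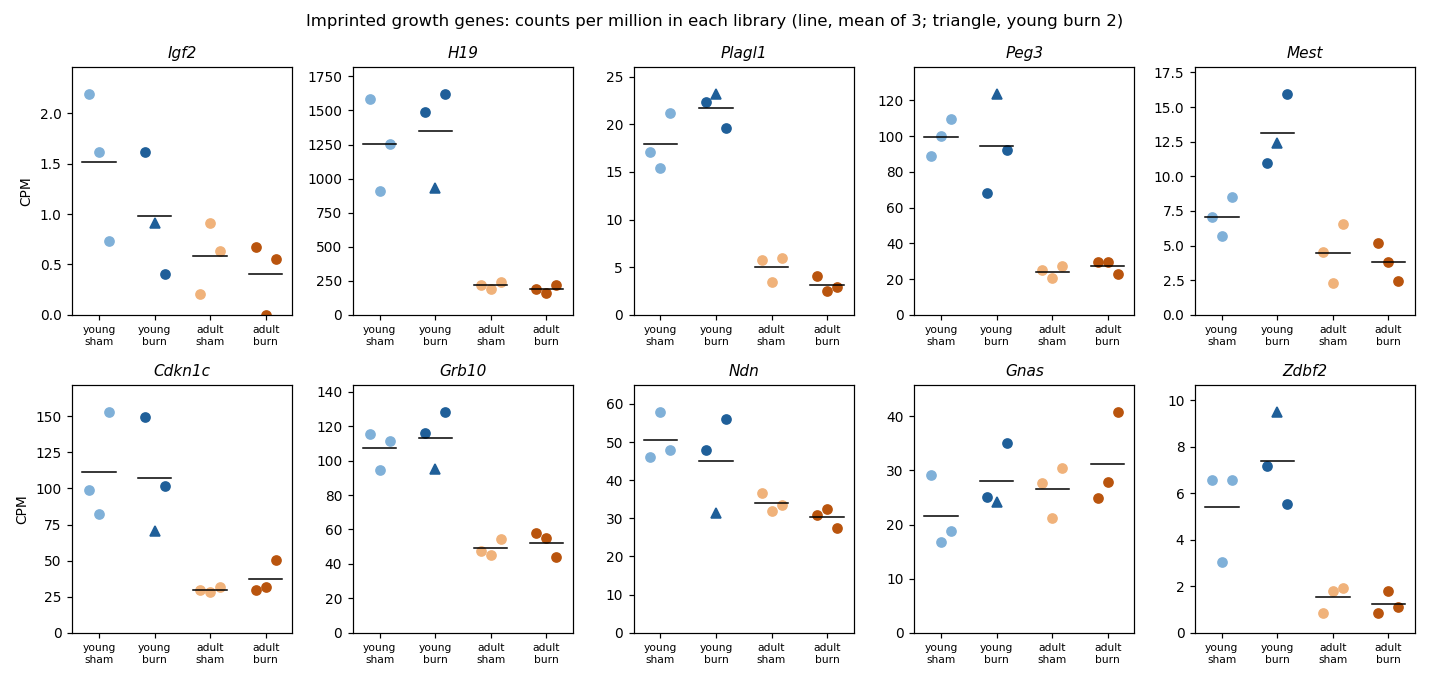
Normalised read counts (CPM, linear axis from 0) of each of the 10 members in each of the 12 libraries, by group; lines are means of 3 libraries and the triangle is young burn replicate 2. H19 lies between 910 and 1621 CPM in the young libraries and between 157 and 241 CPM in the adult libraries, while the Gnas groups overlap.

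*H19* is a non-coding RNA at chr7:142575529-142578143 (minus strand, GRCm38), downstream of *Igf2*, and is transcribed from the maternal copy. Its level was 1586, 910 and 1254 CPM in the young sham libraries and 1489, 932 and 1621 CPM in the young burn libraries. In adult sham it was 219, 193 and 241 CPM, and in adult burn 190, 157 and 215 CPM. Every young library lay above every adult library. The log2 fold change of young over adult was 2.51 (SE 0.179, adjusted p = 2.76e-06), or 5.70-fold, between sham groups and 3.06 (SE 0.192, adjusted p = 5.29e-07), or 8.32-fold, between burn groups. *H19* alone held 70.5% to 79.4% of the counts of all 10 members in young libraries and 46.1% to 55.6% in adult libraries.

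*Igf2* encodes the fetal growth factor IGF2 and lies at chr7:142650766-142666816 (minus strand). It had 9, 8 and 3 counts in young sham, 9, 5 and 2 in young burn, 1, 4 and 3 in adult sham, and 4, 0 and 3 in adult burn. The groups overlap and the counts are near the floor of the assay at this depth. In the fit with no filter on low counts, its log2 fold change was 1.32 (SE 0.664, adjusted p = 0.314) between sham groups and 1.24 (SE 0.770, adjusted p = 0.427) between burn groups. These counts understate the gene by an unknown amount: 62.83% of its exon bases in Gencode M21 also belong to *Gm49394* on the same strand, a row with 0 counts in every library, and the authors' counter leaves a read that falls in more than 1 gene uncounted.

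*Plagl1* and *Zdbf2* are low in this muscle, and both were higher in young. *Plagl1*, a zinc finger transcription factor at chr10:13060504-13131694, was at 17.0, 15.4 and 21.2 CPM in young sham and 22.4, 23.2 and 19.6 CPM in young burn. In adult sham it was at 5.79, 3.40 and 5.94 CPM, and in adult burn at 4.02, 2.53 and 2.97 CPM. No young library overlapped an adult one. Young exceeded adult by a log2 fold change of 1.80 (SE 0.224, adjusted p = 3.37e-04) between sham groups and 2.72 (SE 0.244, adjusted p = 1.10e-05) between burn groups.

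*Zdbf2*, a zinc finger gene at chr1:63273265-63314576 whose loss reduces early growth in mice, was at 6.58, 3.04 and 6.58 CPM in young sham and 7.17, 9.49 and 5.52 CPM in young burn. The adult sham libraries had 0.827, 1.81 and 1.91 CPM and the adult burn libraries 0.838, 1.81 and 1.11 CPM. The young and adult libraries did not overlap, but the adult values rest on 4 to 10 counts each. The log2 fold change was 1.79 (SE 0.409, adjusted p = 0.0121) between sham groups and 2.34 (SE 0.419, adjusted p = 0.00204) between burn groups. Without young sham replicate 3 the sham value was 1.63 (adjusted p = 0.0579), and without adult sham replicate 1 it was 1.49 (adjusted p = 0.0540).

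*Peg3*, a paternally expressed zinc finger gene at chr7:6703892-6730431, was at 88.9, 100.3 and 109 CPM in young sham and 68.4, 124 and 92.0 CPM in young burn. It was at 24.8, 20.4 and 27.4 CPM in adult sham and 29.3, 29.3 and 22.8 CPM in adult burn. The lowest young library was above the highest adult library. On the log2 scale young over adult came to 2.03 (SE 0.149, adjusted p = 2.76e-06) between sham groups and 1.56 (SE 0.156, adjusted p = 3.57e-05) between burn groups.

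*Mest* encodes a protein of the hydrolase fold and lies at chr6:30723547-30748465. It was at 7.06, 5.67 and 8.53 CPM in young sham and at 10.9, 12.4 and 15.9 CPM in young burn. Adult sham had 4.55, 2.27 and 6.58 CPM and adult burn 5.20, 3.80 and 2.41 CPM. The sham groups overlapped and the burn groups did not. The log2 fold change was 0.63 (SE 0.346, adjusted p = 0.251) between sham groups and 1.80 (SE 0.338, adjusted p = 0.00271) between burn groups, so *Mest* was called in the burn comparison and not in the sham comparison. The difference between those effects is the burn by age interaction, which did not pass the test (below). Of the *Mest* exon bases, 23.12% lie opposite *Copg2*, and whether counting kept the strand is not stated in the methods or notes.

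*Cdkn1c* and *Grb10*, which are among the growth-restraining members, were both called in both comparisons. *Cdkn1c*, which encodes the cyclin-dependent kinase inhibitor p57 (chr7:143458339-143461050), was at 99.1, 82.0 and 153 CPM in young sham and 149, 70.5 and 102 CPM in young burn. Adult sham had 29.4, 28.3 and 31.6 CPM and adult burn 29.3, 31.4 and 50.3 CPM. Antisense *Gm44732*, with 0 counts in all libraries, covers 30.65% of its exon bases. Young and adult did not overlap. The CV was 33.3% in young sham, 37.0% in young burn, 5.63% in adult sham and 31.2% in adult burn. Young exceeded adult by a log2 fold change of 1.89 (SE 0.237, adjusted p = 3.41e-04) between sham groups and 1.77 (SE 0.246, adjusted p = 4.03e-04) between burn groups.

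*Grb10* encodes an adaptor that binds the insulin and IGF1 receptors and restrains their signal (chr11:11930508-12038683). It was at 115, 94.8 and 112 CPM in young sham and 116, 95.1 and 128 CPM in young burn. In adult sham it was at 47.4, 45.3 and 54.7 CPM, and in adult burn at 57.7, 54.8 and 43.8 CPM. The log2 fold change was 1.11 (SE 0.125, adjusted p = 1.52e-04) between sham groups and 1.23 (SE 0.134, adjusted p = 7.14e-05) between burn groups, with no overlap of young and adult libraries.

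*Ndn*, a gene of a single exon at chr7:62346569-62350262, gave the smallest called difference. It was at 46.0, 57.9 and 48.0 CPM in young sham and 47.8, 31.4 and 56.0 CPM in young burn, against 36.6, 31.9 and 33.5 CPM in adult sham and 30.9, 32.4 and 27.5 CPM in adult burn. Young burn replicate 2 lay within the adult range. On the log2 scale young over adult came to 0.57 (SE 0.120, adjusted p = 0.00826) between sham groups and 0.78 (SE 0.130, adjusted p = 0.00127) between burn groups. With young burn replicate 2 added, neither was called: 0.58 (adjusted p = 0.0933) and 0.57 (adjusted p = 0.0582).

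*Gnas* encodes the stimulatory G protein alpha subunit and several imprinted transcripts from other start sites (chr2:174284320-174346744). Its CPM were 29.2, 16.8 and 18.8 in young sham, 25.1, 24.1 and 35.2 in young burn, 27.7, 21.3 and 30.5 in adult sham, and 25.0, 27.8 and 40.8 in adult burn. All 4 groups overlapped. The log2 fold change of young over adult was -0.32 (95% interval -0.81 to 0.18, adjusted p = 0.403) between sham groups and -0.05 (95% interval -0.56 to 0.46, adjusted p = 0.903) between burn groups. The gene counts add all *Gnas* start sites together, so they hold no information on each transcript. Of the *Gnas* exon bases, 13.13% lie opposite *Gm20721* (1 count over all libraries) and 8.83% opposite *Nespas* (0 counts). As for *Mest*, whether counting kept the strand is not stated.

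**Figure D2:**
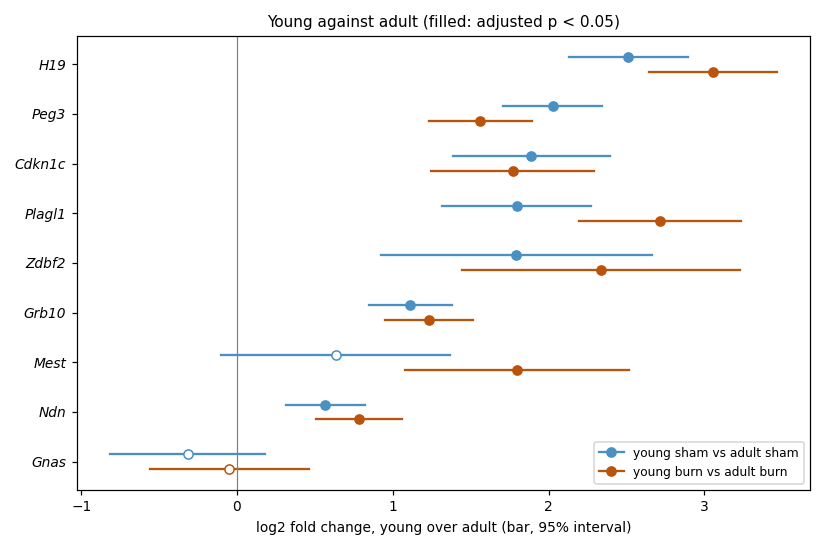
log2 fold change of young over adult (x axis) for the 9 tested members, for sham mice and burned mice; bars are 95% intervals and filled points have an adjusted p under 0.05. H19 has the highest value in both comparisons (2.51 and 3.06), and Gnas is the member called in neither.

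Ordered by their level per length in young sham, the members ran from *H19* at 508 ± 137 CPM per kb of exon (SD, n = 3) through *Cdkn1c* at 54.6 ± 18.2, *Ndn* at 13.7 ± 1.72, *Grb10* at 11.8 ± 1.20 and *Peg3* at 7.47 ± 0.773 to *Plagl1* at 2.29 ± 0.383, *Gnas* at 1.93 ± 0.597, *Mest* at 1.80 ± 0.363 and *Zdbf2* at 0.426 ± 0.162. *Igf2* is not placed in this order, since most of its exon bases could not be counted. *Ndn* and *Grb10* lay within their spread of each other, as did *Plagl1*, *Gnas* and *Mest*. In adult sham *H19* again came first, at 88.5 ± 9.84 CPM per kb, followed by *Cdkn1c* at 14.6 ± 0.822 and *Ndn* at 9.21 ± 0.641.

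In the main fit, no member was called for burn over sham at either age. In adult mice, 0 of 9 members were called for burn over sham by edgeR (1 had an unadjusted p under 0.05) and 0 by DESeq2, where 0.909% of all genes were called by edgeR. In young mice, 0 of 9 were called by edgeR (1 unadjusted) and 0 by DESeq2, against 0.664% of all genes. With so few genes called in all, 0 of 9 does not set the members apart. The member under the unadjusted threshold in adult mice was *Plagl1*, with a log2 fold change of -0.67 (95% interval -1.26 to -0.07, adjusted p = 0.300, edgeR). In young mice it was *Mest*, with 0.94 (95% interval 0.25 to 1.63, adjusted p = 0.171, edgeR); all 3 young burn libraries were above all 3 young sham libraries. With no filter on low counts, *Mest* was called in young mice (adjusted p = 0.0149), where 2.11% of 28070 genes were called. The intervals differ in width among the abundant members: for *H19* the log2 difference of burn over sham was -0.22 (95% interval -0.59 to 0.15) in adult mice and 0.33 (95% interval -0.07 to 0.72) in young mice, and for *Grb10* it was 0.08 (95% interval -0.19 to 0.35) and 0.20 (95% interval -0.08 to 0.48). *Cdkn1c* had 0.31 (95% interval -0.21 to 0.83) and 0.19 (95% interval -0.32 to 0.70), and *Peg3* had 0.16 (95% interval -0.17 to 0.50) and -0.30 (95% interval -0.62 to 0.02).

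**Figure D3:**
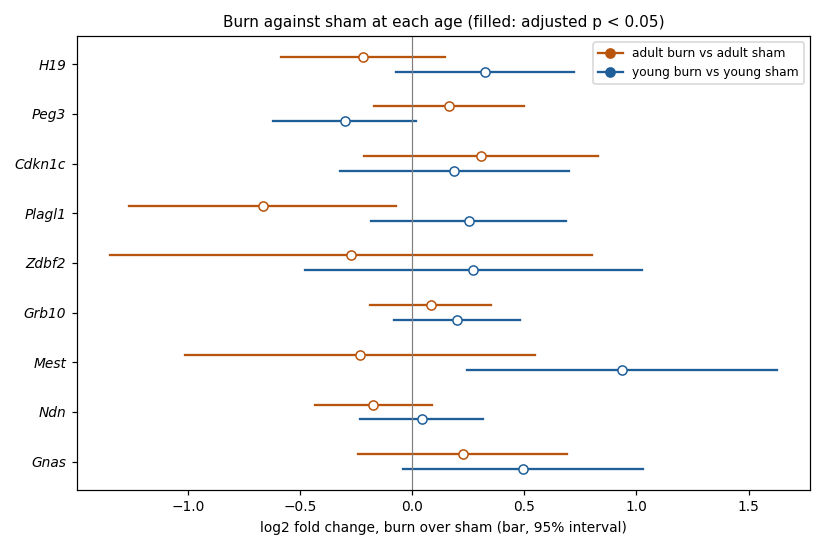
log2 fold change of burn over sham (x axis) for the 9 tested members in adult and young mice; bars are 95% intervals and no point is filled, since none had an adjusted p under 0.05. Mest in young mice (0.94) and Plagl1 in adult mice (-0.67) are the points farthest from 0.

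The burn by age interaction asks whether the burn difference in young mice differs from that in adult mice. It was called for 0 of 9 members by edgeR and 0 by DESeq2, against 0.0949% of all genes by edgeR, and 4 members had an unadjusted p under 0.05. For these, the interaction on the log2 scale was 1.17 (SE 0.491) for *Mest*, 0.92 (SE 0.346) for *Plagl1*, 0.54 (SE 0.254) for *H19* and -0.46 (SE 0.217) for *Peg3*. Their adjusted p in edgeR lay at 0.409, 0.368, 0.444 and 0.446.

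The miRNA libraries held 7 entries of interest: 3 inside members, 2 beside *Gnas* and 2 in *Calcr*, which is not a member. All 6 that passed the filter were called higher in young sham than in adult sham and all 6 in young burn than in adult burn (edgeR over 299 entries, all 12 libraries). The background was high: 56.2% of entries were called between sham groups, 30.8% higher in young, and 55.2% between burn groups, 29.8% higher in young. For burn over sham at each age and for the interaction, 0 of the 6 were called by edgeR and 0 by DESeq2, where 0% of all entries were called by edgeR; 1 of the 6, mir-335 in young mice, had an unadjusted p under 0.05 (log2 fold change 0.42).

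Entry mir-483, in the *Igf2* intron, had 121, 107 and 155 counts in young sham and 174, 212 and 136 in young burn. It had 20, 19 and 25 counts in adult sham and 22, 20 and 14 in adult burn. The log2 fold change was 2.61 (SE 0.245, adjusted p = 5.09e-08) between sham groups and 2.83 (SE 0.247, adjusted p = 1.70e-08) between burn groups. The lowest count of this entry was 14, in an adult burn library, while the *Igf2* row of the mRNA libraries held at most 9 counts. Counts of the miRNA and mRNA libraries are not on the same scale.

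Entry mir-335, in the *Mest* intron, was at 129, 147 and 183 CPM in young sham and 165, 234 and 213 CPM in young burn, against 49.6, 54.5 and 54.8 CPM in adult sham and 60.1, 50.7 and 60.5 CPM in adult burn. Its log2 fold change was 1.53 (SE 0.167, adjusted p = 3.87e-07) between sham groups, where *Mest* was not called, and 1.84 (SE 0.166, adjusted p = 2.75e-08) between burn groups.

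Entry mir-675, in the *H19* exon, is sparse: 16, 27 and 71 counts in young sham, 37, 26 and 25 in young burn, 10, 4 and 11 in adult sham and 6, 8 and 8 in adult burn. Young exceeded adult by a log2 fold change of 2.25 (SE 0.537, adjusted p = 0.00163) between sham groups and 1.61 (SE 0.569, adjusted p = 0.0239) between burn groups. Young sham replicate 3 carried much of the sham value, which was 1.29 (adjusted p = 0.0183) without it. The burn value lost its call when young burn replicate 1 (adjusted p = 0.0787), adult burn replicate 1 (0.0634) or adult burn replicate 2 (0.0615) was left out.

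Entries mir-296 and mir-298 lie beside *Gnas* on the opposite strand (chr2:174267047-174267125 and chr2:174267504-174267585). They had log2 fold changes of 1.89 (adjusted p = 0.00346) and 1.95 (adjusted p = 3.78e-04) between sham groups, and 1.08 (adjusted p = 0.0480) and 1.61 (adjusted p = 0.00231) between burn groups. *Gnas* itself was not called in either comparison (-0.32 and -0.05). The burn value of mir-296 passed the threshold narrowly and missed it under several other settings. Entry mir-653, in an intron of the imprinted gene *Calcr*, had 1.29 (adjusted p = 1.24e-05) and 1.03 (adjusted p = 1.58e-04), and mir-489, also in *Calcr*, had 0 to 9 counts and did not pass the filter.

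**Figure D4:**
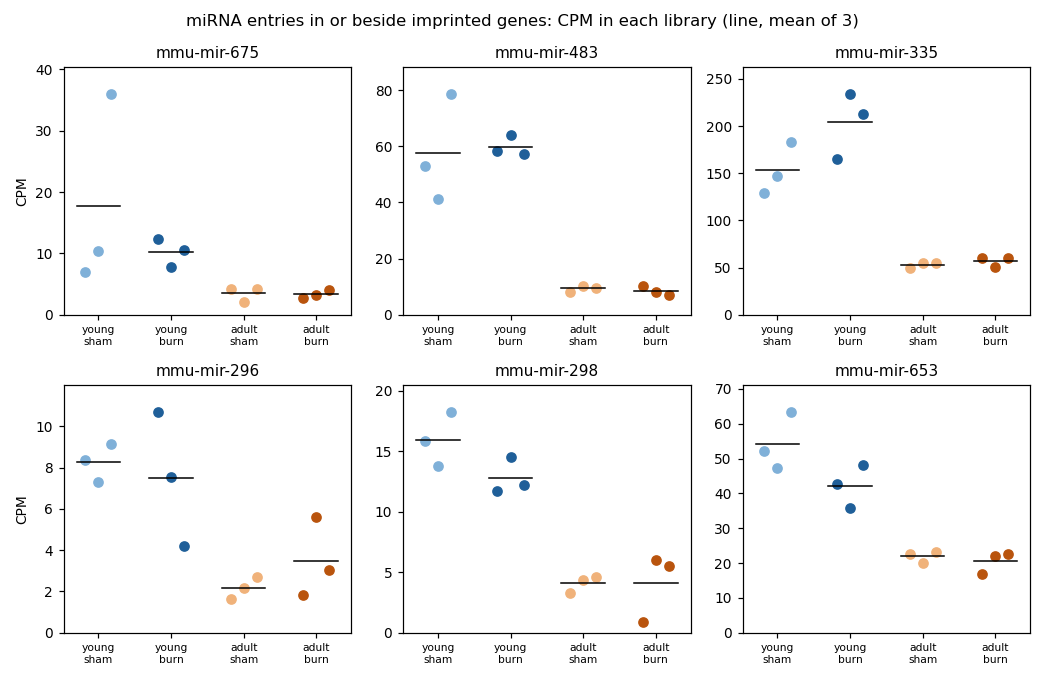
Normalised read counts (CPM, linear axis from 0) of the 6 tested miRNA entries in each of the 12 miRNA libraries; lines are means of 3. Every young library lies above every adult library for each entry but mir-296.

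Other imprinted genes were called in both directions; their difference from the members was not tested. Of 44 listed, 29 were tested; 5 were called higher and 2 lower in young sham than in adult sham, and 7 higher and 6 lower in young burn than in adult burn, with medians of 0.17 and 0.18. Called higher in both were *Zim1*, the neighbour of *Peg3* (log2 fold change 2.02 and 2.07), *Ddc*, the neighbour of *Grb10* (3.65 and 1.54), *Calcr*, the calcitonin receptor gene (1.45 and 1.70), the non-coding RNA *Kcnq1ot1* near *Cdkn1c* (1.21 and 1.37) and *Ppp1r9a* (1.08 and 1.24). Adult levels of *Ddc* were near the floor, at 0.212 to 0.414 CPM in adult sham and 0.371 to 1.01 CPM in adult burn. The size of its fold changes is therefore uncertain. Called lower in both were *Peg13* (-0.75 and -1.11) and *Blcap* (-0.64 and -0.56). Between burn groups *Gatm*, a creatine synthesis gene, was called higher (0.90) and *Zrsr1* lower (-0.87), and *Zrsr1* was at 81.1 CPM in young burn replicate 2 against 16.8 CPM in young burn replicate 1. With that library added, *Peg13* (adjusted p = 0.0677) and *Blcap* (0.0794) were not called between sham groups, nor *Blcap* (0.282), *Ddc* (0.128) and *Gatm* (0.340) between burn groups, and *Zrsr1* turned to 0.25 (0.744). *Nctc1*, a non-coding RNA downstream of *H19*, was the listed gene called for burn in young mice (-0.78, SE 0.130, adjusted p = 0.0189), and it was not called there with young burn replicate 2 added.

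Among 24 genes of IGF2 signalling, 16 were tested; 5 were called higher and 2 lower in young sham, and 3 higher and 2 lower in young burn, with medians of 0.32 and 0.27. The ligand gene *Igf1* was higher in young (1.15 and 0.96), as were the binding protein genes *Igfbp3* (1.21 and 0.98) and *Igfbp7* (0.65 and 0.60). *Irs2*, a substrate of the insulin and IGF1 receptors, was lower (-1.05 and -0.70). Between sham groups *Igf1r*, the receptor gene, was higher (0.48), as was the binding protein protease gene *Pappa* (1.25), and *Irs1* was lower (-1.26). Between burn groups the insulin receptor gene *Insr* was lower (-0.49). The gene of the clearance receptor, *Igf2r*, had -0.03 (95% interval -0.26 to 0.20) and 0.32 (95% interval 0.07 to 0.58), neither called. With young burn replicate 2 added, *Igf1r* (adjusted p = 0.127) and *Pappa* (0.0580) were not called between sham groups, nor *Irs2* (0.0830) and *Insr* (0.124) between burn groups.

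Of 16 genes that place, keep or erase imprints, 12 were tested, and 2 were called higher between sham groups: *Tet2* (0.83) and *Arid4b* (0.46). Between burn groups *Tet1* (2.31), *Dnmt3a* (0.62) and *Tet3* (0.41) were called higher and *Trim28* lower (-0.34). The *Tet1* value rests on low levels in adult burn (0.542 to 1.68 CPM). With young burn replicate 2 added, *Tet2* was still called between sham groups and *Tet1* between burn groups; *Arid4b* (adjusted p = 0.0716), *Dnmt3a* (0.243), *Tet3* (0.151) and *Trim28* (0.125) were not.

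**Figure D5:**
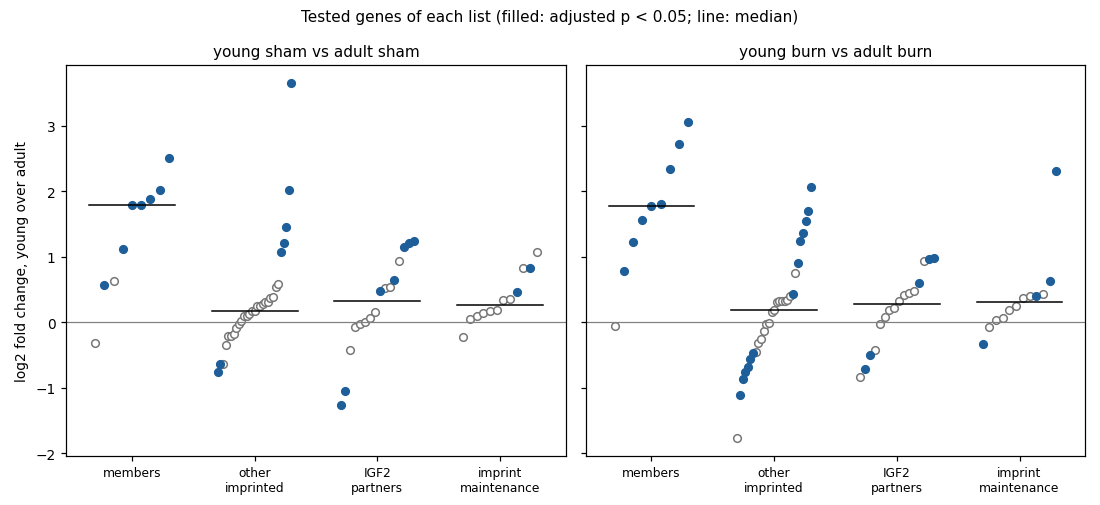
log2 fold change of young over adult (y axis) for each tested gene of 4 lists, between sham groups and between burn groups; filled points have an adjusted p under 0.05 and lines are medians. The members have medians of 1.79 and 1.77, and the other imprinted genes 0.17 and 0.18. Members and lists were chosen with earlier results of these data known.

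Markers of several other cell types moved with age beside the members. The summed CPM of 8 fibro-adipogenic markers was 8201 to 9476 in young sham and 8609 to 10996 in young burn, against 5253 to 6675 in adult sham and 5806 to 7282 in adult burn. In this list *Col1a1* and *Col3a1* were called higher in young sham (2.21 and 1.73), while the defining marker *Pdgfra* had 0.25 (adjusted p = 0.404). These 2 collagen genes were the only ones of the 8 called between sham groups, and *Gsn* (-0.21) and *Ly6a* (-0.07) had negative values. The 7 satellite cell markers summed to 60.9 to 66.2 CPM in young sham and 47.1 to 50.5 CPM in adult sham, and the burn groups overlapped (53.7 to 71.1 and 48.4 to 65.8 CPM). The 6 Schwann cell markers summed to 187 to 322 CPM in young sham and 139 to 157 CPM in adult sham, and the burn groups again overlapped (139 to 341 and 116 to 159 CPM). The 6 endothelial markers were at 348 to 460 CPM in young sham and 373 to 472 CPM in young burn, above 298 to 320 CPM in adult sham and 268 to 312 CPM in adult burn. The 8 tendon markers were at 467 to 487 CPM in young sham and 174 to 416 CPM in adult sham, and at 154 to 287 and 163 to 275 CPM in young and adult burn. The 6 myoblast fusion genes summed to 48.0 to 54.5 CPM in young sham and 50.5 to 57.1 CPM in adult sham, which overlapped, and to 69.2 to 93.5 CPM in young burn and 33.4 to 68.8 CPM in adult burn, which did not. Of these genes, *Myog* (1.69 and 2.87) and *Mymk* (4.33 and 5.20) were called higher in young between sham and between burn groups. *Mymk* was near the floor in adult muscle (0 to 0.335 CPM per library), so the size of its fold changes is uncertain. *Myod1* was called lower in young between sham groups (-1.05, adjusted p = 0.0160, edgeR) and was not called between burn groups (-0.46). Between burn groups alone, *Myh3* (1.91) and *Myh8* (1.56) were called higher in young. *Myh3* lost its call with young burn replicate 2 added (adjusted p = 0.0611, edgeR). The nuclear RNA *Malat1*, listed as a sign of RNA quality, had 0.77 and 0.81, neither called with that library added. The 8 proliferation genes overlapped, at 37.3 to 54.1 CPM in young sham and 43.6 to 52.8 CPM in adult sham. The 6 macrophage markers overlapped too, at 153 to 201 CPM in young sham and 149 to 176 CPM in adult sham. Their sums did not overlap between burn groups, at 273 to 434 CPM in young burn and 181 to 255 CPM in adult burn. There 4 of the 6 were called higher in young, and 4 were called with young burn replicate 2 added. The part of all these marker lists in the age differences of the members was not tested.

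The genes whose log2 CPM followed each member most closely over the 12 libraries are given by Pearson r as a description. For *H19* they were *Rian* (0.987), *Sparc* (0.985) and *Kcne1l* (0.978). For *Grb10* they were *Ppic* (0.987), *Sparc* (0.981) and *Col26a1* (0.976), and for *Plagl1* they were *Map4k4* (0.983), *Pxdn* (0.979) and *Col3a1* (0.979). For *Peg3* they were *Actc1* (0.964), *Zim1* (0.960) and *Sparc* (0.956), for *Cdkn1c* *Ifi44* (0.976), *Mxd4* (0.968) and *Sema6a* (0.967), and for *Zdbf2* *Prkar1a* (0.943), *Igfbp3* (0.931) and *Dlk1* (0.929). For *Mest* they were *Sept8* (0.965), *Lipa* (0.947) and *Mgp* (0.930), for *Ndn* *Tceal8* (0.950), *Etv4* (0.940) and *Wipf1* (0.933), and for *Gnas* *Nrtn* (0.894), *Ppp1ca* (0.836) and *Rnf31* (0.806). The libraries fall into 2 age clusters. For these 27 pairs r ran from -0.383 to 0.946 (median 0.831) within the 6 young libraries and from 0.426 to 0.960 (median 0.709) within the 6 adult libraries. Over the 36 pairs of tested members the median r was 0.178 within the 6 young libraries and 0.0346 within the 6 adult libraries.

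Promoter windows, 250 bases before to 50 after a start site (RefSeq, GRCm38.p6), were found for 8 of the 10 members, all but *H19* and *Cdkn1c*. They were searched on both strands for TGCCGC, the hexamer read by the imprint-keeping protein ZFP57, and for GGGGCCCC, a site read by PLAGL1, itself a member. TGCCGC was in a window of 5 of the 8 members (*Igf2*, *Plagl1*, *Mest*, *Grb10* and *Zdbf2*), against 13.1% of all genes with a window, and GGGGCCCC was in that of *Peg3*, against 1.25%. Members have more windows than most genes, and 6 of their 18 windows held TGCCGC, 2 of which overlap, against 11.6% of all windows. The *Zdbf2* matches were all in a window (chr1:63200108-63200407) upstream of the gene as counted (chr1:63273265-63314576). The window at the start of the counted gene (chr1:63273019-63273318) held 0 matches. Stretches before 4 start sites are shown with the matches in capitals, on the gene's strand: *Peg3* at chr7:6730567-6730666, *Plagl1* at chr10:13090695-13090794, *Mest* at chr6:30737800-30737899 and *Zdbf2* at chr1:63200156-63200255.
Peg3: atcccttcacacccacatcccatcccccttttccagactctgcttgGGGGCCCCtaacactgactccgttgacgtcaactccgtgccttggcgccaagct
Plagl1: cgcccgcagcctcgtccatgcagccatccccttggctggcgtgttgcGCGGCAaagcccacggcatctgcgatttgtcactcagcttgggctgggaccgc
Mest: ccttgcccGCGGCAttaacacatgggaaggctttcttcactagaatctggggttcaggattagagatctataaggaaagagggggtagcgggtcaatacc
Zdbf2: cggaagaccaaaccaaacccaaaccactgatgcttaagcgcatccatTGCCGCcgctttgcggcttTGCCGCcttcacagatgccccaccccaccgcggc
A match is a description of the letters and says nothing of binding in this muscle.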

How the data were processed

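The authors prepared poly-A mRNA and small RNA libraries from gastrocnemius of the same design and deposited raw counts per gene and per miRNA entry. Per the study's methods and the submitters' processing notes, mRNA reads were aligned to GRCm38 with STAR 2.7.5c and counted per gene (Gencode M25), and miRNA reads were counted with featureCounts 2.0.1. Neither source says which strand was counted or how multi-mapping miRNA reads were handled. Gene names, positions and exon lengths were taken from Gencode M21 on the same build, which matched 55141 of 55401 identifiers.

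From the deposited counts, genes were kept by filterByExpr (minimum count 10, minimum total 15), normalised by TMM and tested with edgeR 4.0.16 quasi-likelihood F tests on group means, with Benjamini-Hochberg adjustment over all features. The main mRNA fit used 11 libraries, leaving out young burn replicate 2, since the study's heatmap leaves out 1 young burn animal; miRNA fits used all 12. CPM of each library used TMM over all 12. Likeness used log2 CPM with a prior count of 2. Alternatives were other scalings, no filter, DESeq2, the 12 libraries, the groups compared alone, a replicate block and each replicate left out. The fits were tested on simulated data. All members were named in every comparison; from the other lists, up to 8 called genes with the largest change per age comparison and every called gene of a burn comparison; and for each member the 3 genes most alike. The members and lists were chosen with earlier results of these data known.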

Additional observations from a re-analysis of the deposited data

How the results depend on the processing

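Between sham groups the number of members called ranged from 6 to 7 over all alternatives, and between burn groups from 7 to 8; no called member changed sign. *Ndn* lost its call between sham groups with library size alone (adjusted p = 0.0607, edgeR). Library size alone moved the median of all genes to -0.133 between sham groups (353 of 1789 calls higher in young, against 667 of 1488) and that of the miRNA entries to 0.521 (159 of 179 higher, against 92 of 168) and 0.301 (113 of 141, against 89 of 165); the 6 host entries kept their direction. The host entries called between burn groups ranged from 4 to 6 with a replicate left out. With young burn replicate 2 the calls over all genes were 467 in place of 1488 between sham groups, 1343 in place of 2623 between burn groups, 1 in place of 115 for burn in adult mice and 8 in place of 84 for burn in young mice.

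For burn in young mice 1 member (*Mest*) was called with no filter, where 593 of 28070 genes were called in place of 84 of 12651. With young burn replicate 2 the counts were 7 other imprinted genes and 3 IGF2 signalling genes between burn groups, and 1 imprint maintenance gene in either age comparison. With the replicate block, 8, 3 and 2 were called in those lists between burn groups, the members stayed at 7 and 8, and 5 host entries were called between burn groups. Imprint maintenance had 1 and 2 with library size alone, and 2 between burn groups with no filter or with DESeq2. With a replicate left out, other imprinted genes ranged from 4 to 8 between sham groups and 4 to 14 between burn groups, IGF2 signalling genes from 3 to 6 and 1 to 6, and imprint maintenance genes from 1 to 3 in both. These list alternatives were chosen after seeing the data.

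Signs changed for uncalled log2 values. With young burn replicate 2, burn in young mice gave -0.055 for *Cdkn1c* and -0.17 for *Ndn*, and the interaction gave -0.0067 for *Grb10* and -0.0014 for *Ndn*. Library size alone gave an interaction of 0.073 for *Cdkn1c*. With a replicate left out, burn in young mice ranged from -0.12 to 0.47 for *Cdkn1c*, -0.073 to 0.15 for *Ndn* and -0.036 to 0.45 for *Zdbf2*. Burn in adult mice ranged from -0.54 to 0.15 for *Mest*, -0.0024 to 0.19 for *Grb10* and -0.011 to 0.36 for *Gnas*. The interaction ranged from -0.42 to 0.16 for *Cdkn1c* and -0.0054 to 0.20 for *Grb10*, and young over adult in burned mice from -0.31 to 0.19 for *Gnas*. The cause was not tested. The interaction needs all 4 groups, so it has no fit of the groups compared alone. Same-numbered replicates did not deviate together (correlations of -0.172 to 0.14), so the numbers were not taken to pair mice. The counting depth limits *Igf2*, *Zdbf2* and mir-675, and among the other listed genes *Ddc*, *Tet1* and *Mymk*.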
